A study of Homo sapiens with 6 samples.

Results

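Telomerase and its assembly are represented here by 9 genes, which were examined for binding of GABPA, the DNA-contacting subunit of the transcription factor GABP. They were TERT, DKC1, NOP10, NHP2, GAR1, WRAP53, NAF1, SHQ1 and PARN, out of 19974 protein-coding genes in the RefSeq table used. They were chosen by name, and a gene was given a GABPA peak when the peak's summit was no more than 1 kb from one of the 2 ends of its RefSeq span. Binding was measured by ChIP-seq, which sequences DNA recovered with an antibody (here against GABPA), in A-375, an established human melanoma line.

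In all 3 conditions the cells were A-375. The first condition lost exon 2 of GABPB1, which encodes B1, a partner subunit of GABPA, and then received a TERT knock-in, and it is called the B1 knockout below. The second was a control knockout at ROSA26, and the third was the parental line. By the labels' protocol knockouts were expanded as clones from sorted cells, so effects of losing B1, of added TERT and of the clone cannot be told apart. The labels do not give the promoter or position of the knocked-in TERT. Of the 6 samples, 3 are ChIP libraries with a peak list (1 per condition) and 3 are inputs, which were not analysed on their own here. No difference below has a replicate check. The lists hold 1660 peaks in the B1 knockout, 3857 in the ROSA26 and 3024 in the parental library, and the background most common among their peaks was 9.86, 14.2 and 15.4 reads in that order. The peak lists show neither the GABPB1 edit, nor the knock-in, nor RNA, so the cell type was not checked against its markers.

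Telomerase adds telomere repeats to chromosome ends with TERT, its reverse transcriptase, and an RNA of the H/ACA class. That RNA is held by dyskerin (the product of DKC1), NOP10, NHP2 and GAR1, the proteins that also bind H/ACA small nucleolar RNAs. SHQ1 and NAF1 chaperone the assembly of this particle, WRAP53 brings it to Cajal bodies, and PARN trims the 3′ end of the RNA. In many melanomas, mutations in the TERT promoter create binding motifs of the ETS family, to which GABPA belongs, and GABP is known to occupy the mutant allele.

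GABPA peaks lay at the starts of 6 of the 9 genes in both controls, and at 4 of them in the B1 knockout. NOP10, GAR1, SHQ1 and WRAP53 were listed in all 3 libraries. NHP2 and PARN were listed in the ROSA26 and parental libraries and not in the B1 knockout. TERT, DKC1 and NAF1 were listed in none. Among all protein-coding genes, 9.32% had a peak near an end in the B1 knockout, 18.5% in the ROSA26 and 15.5% in the parental library. A peak in each of the 3 lists was found at 9.27% of genes. Both controls marked 3063 genes (15.3%), of which 60.4% also had one in the B1 knockout (95% exact binomial interval 58.7 to 62.2), and 4 of 6 members is near that share. The counts changed with list length. With the 1660 strongest peaks of each list by −log10 p, 4 members were listed in the B1 knockout, 3 in the ROSA26 and 3 in the parental library, which turns the order of the counts round. The share of all protein-coding genes at that length was not computed, so this turn is not shown to be particular to the members. At that length the members listed differed by WRAP53 alone, whose B1 knockout peak was at rank 1621. The B1 knockout list was not shortened by this cut.

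The promoters of 5 of these genes are shown because a GABPA summit lay within 100 bp of their start site in each library that listed a peak. Each runs 5′ to 3′ along the gene's own strand, from 120 bases before the start site to 30 bases from it (RefSeq, GRCh38.p14, the assembly that hg38 also names). Capitals mark GGAA, the core of an ETS motif, or TTCC where it lies on the other strand. The GAR1 stretch ends before the GAR1 summits, and the other stretches hold the summits of their genes.
SHQ1, chr3:72848416-72848565, minus strand: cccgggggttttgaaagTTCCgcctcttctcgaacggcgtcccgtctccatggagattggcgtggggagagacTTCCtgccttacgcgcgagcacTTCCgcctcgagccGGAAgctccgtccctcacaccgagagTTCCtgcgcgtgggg
NOP10, chr15:34343107-34343256, minus strand: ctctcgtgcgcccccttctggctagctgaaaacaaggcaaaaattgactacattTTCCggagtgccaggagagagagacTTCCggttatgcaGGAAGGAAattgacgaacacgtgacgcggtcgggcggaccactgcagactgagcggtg
GAR1, chr4:109815390-109815539, plus strand: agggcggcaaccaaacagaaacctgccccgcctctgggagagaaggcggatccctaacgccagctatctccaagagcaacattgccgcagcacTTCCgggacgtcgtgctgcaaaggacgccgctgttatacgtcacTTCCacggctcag
PARN, chr16:14630231-14630380, minus strand: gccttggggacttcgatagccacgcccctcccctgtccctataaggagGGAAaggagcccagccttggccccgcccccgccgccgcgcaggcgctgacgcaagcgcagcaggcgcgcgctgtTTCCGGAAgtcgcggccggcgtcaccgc
NHP2, chr5:178153856-178154005, minus strand: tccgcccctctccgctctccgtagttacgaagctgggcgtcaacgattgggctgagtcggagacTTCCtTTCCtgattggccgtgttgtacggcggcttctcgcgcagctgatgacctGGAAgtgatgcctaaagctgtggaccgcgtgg

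The catalytic gene had no GABPA peak. TERT (chromosome 5, 1253167 to 1295068) had no summit inside its span or within 1 kb of it in any library. The nearest summit lay 360 kb away in the B1 knockout, 50.2 kb away in the ROSA26 and 50.1 kb away in the parental library. At the background most common in the B1 knockout list, the lowest −log10 p listed there (4.74) takes a pileup of 24 scaled reads, a fold enrichment of 2.47. The same limits were a fold of 2.10 in the ROSA26 and 2.39 in the parental library. A position without a peak is therefore below a limit of about this size, or was passed over by other rules of the peak caller, and is not shown to be unbound. The reference promoter of TERT holds 4 GGAA cores and no CCGGAAG, the longer ETS motif described below, but it is not the sequence of these cells, whose own TERT alleles were not analysed here.

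The core H/ACA genes fell into 3 groups by their peaks. Fold enrichment, the authors' own value for each peak, compares stacked reads under a summit with those that the caller's local background predicts. NOP10 (chromosome 15, 34341719 to 34343136) had a fold of 3.64 in the B1 knockout, 7.64 in the ROSA26 and 8.11 in the parental list. GAR1 (chromosome 4, 109815510 to 109824737) had folds of 4.58, 10.1 and 8.28 in the same order. In both genes the controls lay close together and the B1 knockout below them. NHP2 (chromosome 5, 178149463 to 178153885), which binds NOP10 in the particle, had weak peaks of fold 3.73 in the ROSA26 and 2.87 in the parental list and none in the B1 knockout. DKC1 (chromosome X, 154762864 to 154777689), the pseudouridine synthase of the particle, had no peak in any library, with the nearest summit 215 kb away in each.

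**Figure D1:**
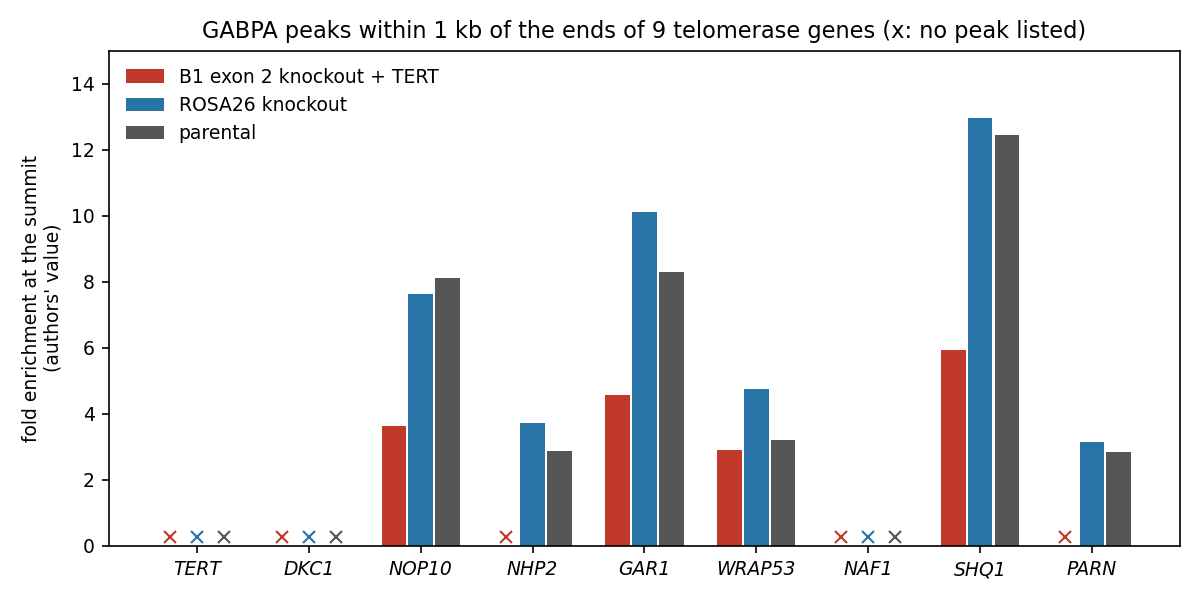
Fold enrichment at the summit (vertical axis, authors' value) of the GABPA peak at each of the 9 genes, with bars for the B1 knockout, ROSA26 and parental library from left to right and a cross where no peak is listed. SHQ1 has the highest bars in the 3 libraries, and TERT, DKC1 and NAF1 have crosses only.

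Of the assembly chaperones, SHQ1 was marked most strongly of the 9 genes and NAF1 was not marked. SHQ1 (chromosome 3, 72725272 to 72848445), which holds newly made dyskerin, had a fold of 5.95 in the B1 knockout, 13.0 in the ROSA26 and 12.5 in the parental list. By −log10 p it ranked 720 of 1660, 651 of 3857 and 387 of 3024 peaks, so it stood among the top 43.4%, 16.9% and 12.8% of the lists. NAF1 (chromosome 4, 163103929 to 163166890), which GAR1 replaces in the mature particle, had its nearest summit 328 kb away in each library.

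The 2 genes that act on the telomerase RNA after assembly had peaks of low fold where listed. Their folds lay below the median of the list, which was 5.81 in the B1 knockout, 6.02 in the ROSA26 and 6.36 in the parental library. WRAP53 (chromosome 17, 7686071 to 7703502) had a fold of 2.90 in the B1 knockout, 4.74 in the ROSA26 and 3.20 in the parental list. PARN (chromosome 16, 14435701 to 14630260), a poly(A)-specific ribonuclease, had folds of 3.14 in the ROSA26 and 2.83 in the parental list and no peak in the B1 knockout. PARN and NHP2 were near the bottom of the parental list, with higher folds in 96.7% and 96.3% of its peaks. The WRAP53 peaks were wide in the controls, 395 bp in the B1 knockout against 1090 bp in the ROSA26 and 930 bp in the parental library.

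The number of reads at each summit, solved from its listed fold and p-value, shows how much data stands behind these folds. SHQ1 had 95 reads in the B1 knockout (95% exact Poisson interval 76.9 to 116), 226 in the ROSA26 and 245 in the parental library. NOP10 had 58 (44.0 to 74.98), 156 and 158 reads, and GAR1 had 49 (36.3 to 64.8), 153 and 136 reads, in the same order. WRAP53 had 46 reads in the B1 knockout, 121 in the ROSA26 and 103 in the parental library. These intervals cover counting error only, and the libraries differ in the background most common among their peaks. Their total read numbers were not used here.

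Divided by the background most common in its own library, the SHQ1 summit stood at 9.63 in the B1 knockout (7.80 to 11.8), against 15.9 in the ROSA26 (13.9 to 18.1) and 15.9 in the parental library (14.0 to 18.0). NOP10 stood at 5.88 (4.47 to 7.60), against 11.0 in the ROSA26 (9.32 to 12.8) and 10.3 in the parental library (8.72 to 11.99). GAR1 stood at 4.97 (3.68 to 6.57), against 10.8 (9.12 to 12.6) and 8.83 (7.41 to 10.4). For these 3 genes the counting interval of the B1 knockout lay below that of each control. How many of all peaks have intervals so placed was not counted, so this is not shown to be particular to these genes. For WRAP53 the B1 knockout, at 4.67 (3.42 to 6.22), lay below the ROSA26 value of 8.51 (7.06 to 10.2) and overlapped the parental value of 6.69 (5.46 to 8.11).

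Lower enrichment in the B1 knockout was found at most GABPA peaks, whatever their gene. Over the 1628 peaks listed in the 3 libraries, the median quotient of B1 knockout over parental enrichment, measured in the same way, was 0.720, and the middle 50% ran from 0.588 to 0.859. The quotients of SHQ1 (0.606) and WRAP53 (0.698) lay within that range, and those of NOP10 (0.573) and GAR1 (0.563) just below it. A lower quotient was found at 20.0% of the 1628 peaks for GAR1, 22.1% for NOP10, 27.7% for SHQ1 and 45.3% for WRAP53. With the local background of each peak, as in the authors' fold, the quotients were 0.477 for SHQ1, 0.449 for NOP10, 0.553 for GAR1 and 0.906 for WRAP53, beside a median of 0.695 over the 1628 peaks (middle 50% 0.552 to 0.858). On that scale NOP10 and SHQ1 lay below the middle 50%, GAR1 at its lower edge and WRAP53 above it. Each gene was also set beside the 100 of these peaks nearest to it in parental fold. WRAP53 then lay within their middle 50% (0.812 to 1.03), as did GAR1 (0.509 to 0.804). NOP10 (0.503 to 0.763) and SHQ1 (0.527 to 0.823) lay below that of their own neighbours.

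With the controls scaled to the B1 knockout background, the B1 knockout value was the lowest at each of the 4 genes listed there. The SHQ1 peak had a −log10 p of 39.6 in the B1 knockout, against scaled values of 108 in the ROSA26 and 106 in the parental library. NOP10 had 15.4 in the B1 knockout, against 53.6 and 53.1. GAR1 had 17.5 in the B1 knockout, against 64.9 and 46.9. WRAP53 had 9.41 in the B1 knockout, against 28.2 in the ROSA26 and 14.2 in the parental library. A B1 knockout value below the scaled parental one was found at 90.7% (89.2 to 92.1) of the 1628 peaks. The B1 knockout value divided by the scaled parental one had a median of 0.567 over these peaks, with the middle 50% between 0.394 and 0.775. NOP10 (0.290), GAR1 (0.372) and SHQ1 (0.375) lay below that range and WRAP53 (0.662) within it, and 10.1%, 21.9%, 22.3% and 62.3% of the peaks had a lower value than these genes in that order. For NHP2 the scaled values were 17.3 in the ROSA26 and 8.25 in the parental library, and for PARN 9.58 and 7.55, above the lowest value listed in the B1 knockout but, except for NHP2 in ROSA26, below its 10th percentile of 13.6.

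**Figure D2:**
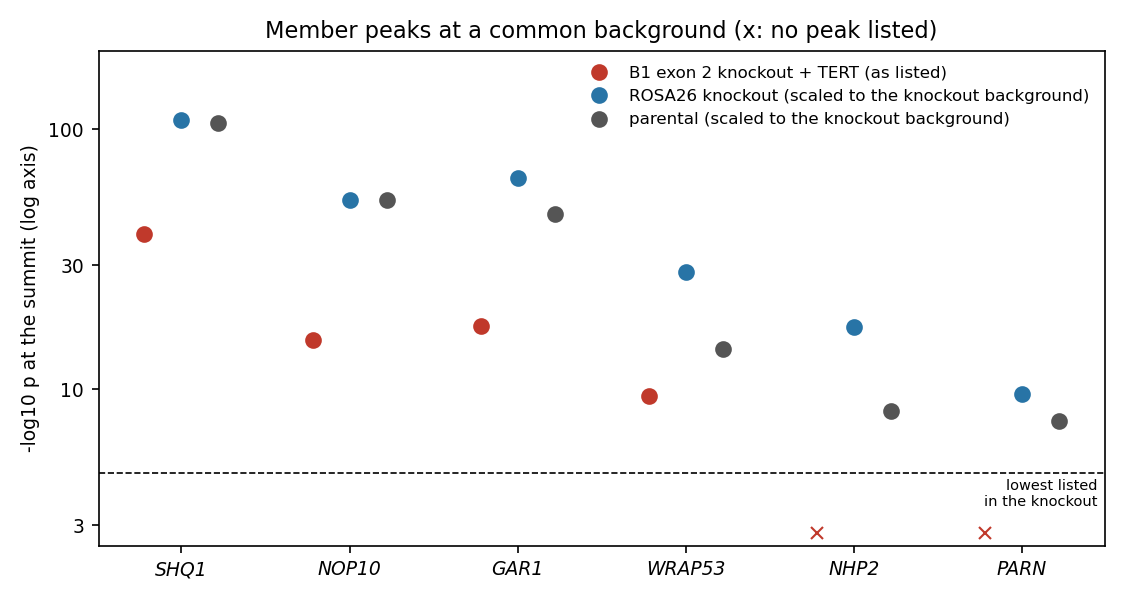
−log10 p at the summit (log axis) for 6 genes, with B1 knockout values as listed and ROSA26 and parental values scaled to the B1 knockout background, from left to right. The B1 knockout point is the lowest of the 3 at SHQ1, NOP10, GAR1 and WRAP53, and NHP2 and PARN have crosses (no peak listed) in the B1 knockout. The dashed line is the lowest value listed in the B1 knockout.

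Whether a gene was listed in the B1 knockout was read beside peaks of like strength, and for all but WRAP53 it went with the majority of them. Control-shared peaks are the 2969 parental peaks overlapped by a ROSA26 peak. Of the 200 control-shared peaks nearest in parental fold, 96.0% had a B1 knockout peak for SHQ1, 88.0% for GAR1 and 84.5% for NOP10. The corresponding shares were 3.00% for NHP2 (1.11 to 6.42) and 3.50% for PARN (1.42 to 7.08). WRAP53 was listed in the B1 knockout, as were 4.50% of the peaks nearest to it in parental fold (2.08 to 8.37). Of the 190 control-shared peaks with a lower parental fold than WRAP53, 6 were listed in the B1 knockout. The background local to its parental peak was 2.04 times the common one, a level reached by 2.73% of control-shared peaks, and its B1 knockout peak was near the foot of that list, at rank 1621 of 1660. Ranked by parental −log10 p, 6.50% of its 200 neighbours were listed in the B1 knockout, and by ROSA26 fold 13.0%.

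**Figure D3:**
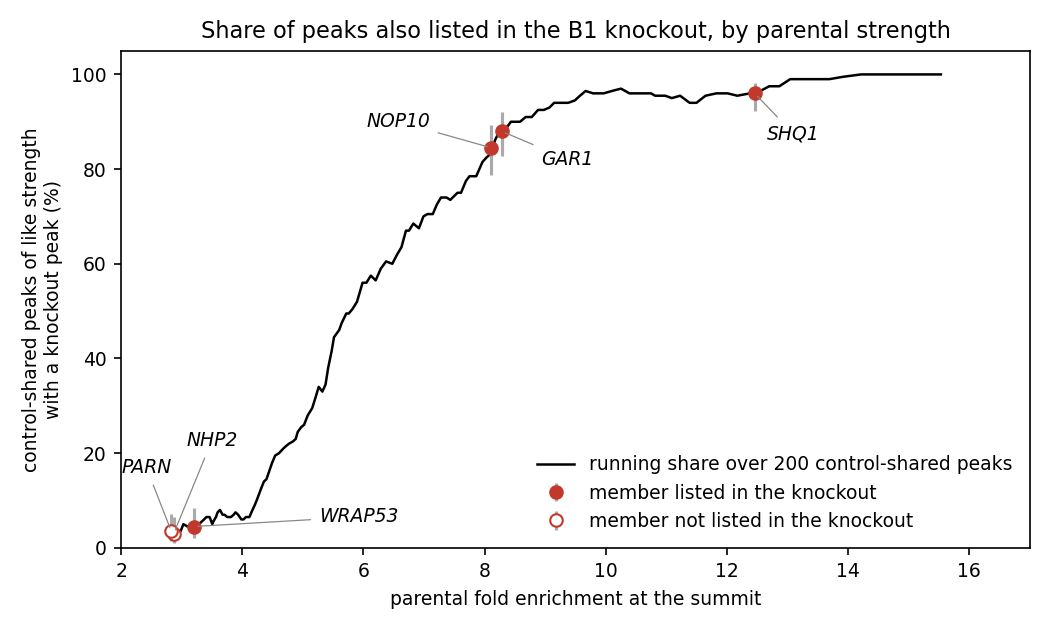
Share of control-shared peaks with a B1 knockout peak (vertical axis, %) against parental fold enrichment (horizontal axis), as a running share over 200 peaks (line) and for the 200 peaks nearest to each gene (points, with 95% exact binomial intervals). SHQ1, GAR1 and NOP10 are listed in the B1 knockout and sit where 84.5% or more of peaks are, NHP2 and PARN are not listed and sit where 3.50% or fewer are, and WRAP53 is listed where 4.50% are.

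The peaks lay at the starts of the genes, and at the same place in each library. The farthest of the 16 member summits lay 134 bp from the first RefSeq start site (WRAP53 in the B1 knockout), and the nearest lay 2 bp from it (PARN in the parental library). Summits of the same gene differed between libraries by at most 73 bp, at WRAP53, and by 1 bp between ROSA26 and parental cells at SHQ1 and NHP2. No other member peak lay just outside the 1 kb limit, where the closest was 2618 bp from PARN in the ROSA26 and 2580 bp from it in the parental library. Those peaks had folds of 7.92 and 3.93, higher than the peaks of PARN itself.

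The peaks of NOP10 and GAR1 lay close to the end of a neighbouring gene. The NOP10 summit lay 136 bp (B1 knockout and parental) or 104 bp (ROSA26) from the nearer end of the span of NUTM1. That gene is known from testis, and the peak counts for both genes. The GAR1 summit lay 180 to 221 bp from the nearer end of GAR1-DT, a long non-coding RNA gene on the other side of the start. SHQ1, NHP2 and PARN had no other protein-coding gene end within reach.

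The longer ETS motif CCGGAAG was present in the first window of 4 of the 6 marked genes. It was searched on both strands of the 300-base RefSeq windows (250 bases before the start site to 50 after), which cover 8 of the 9 genes. It occurs in 12.8% of 22132 windows of protein-coding genes and in 64.2% of the 2429 windows that hold a parental summit. CCGGAAGT, which contains it, occurs in 5.35% and 37.6% of the windows. SHQ1, NOP10, GAR1 and PARN each held CCGGAAG once in their first window, and the copy was CCGGAAGT in NOP10, GAR1 and PARN. The first GAR1 window held none of the 3 summits. They lay in the window of its second start site, which has 6 GGAA and no CCGGAAG, so among windows that hold a summit the motif was in those of NOP10, SHQ1 and PARN and not in those of NHP2 and GAR1. The first windows of NHP2 and WRAP53, and those of TERT and DKC1, held neither. The shorter core GGAA is in 95.2% of all windows and says little on its own, with 4 copies at NOP10 and PARN, 5 at SHQ1 and 6 at NHP2.

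The motif's centre lay within 47 bp of each summit in NOP10, SHQ1 and PARN. At NOP10 its centre was 4 bp from the B1 knockout summit, 36 bp from the ROSA26 and 4 bp from the parental one. At SHQ1 the distances were 47, 24 and 25 bp in the same order, and at PARN 2 bp in the ROSA26 and 9 bp in the parental library. At GAR1 the summits lay farther downstream, at 77, 85 and 118 bp from the motif. Over the 1560 windows with both a parental summit and CCGGAAG, the median distance was 17 bp and the middle 50% ran from 8 to 35 bp. PARN thus held a full CCGGAAGT at its summit and had the lowest parental fold of the 6 genes, and WRAP53 was listed in the 3 libraries with no CCGGAAG in its window, although its summits lay beyond the window's end and the sequence there was not used here.

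**Figure D4:**
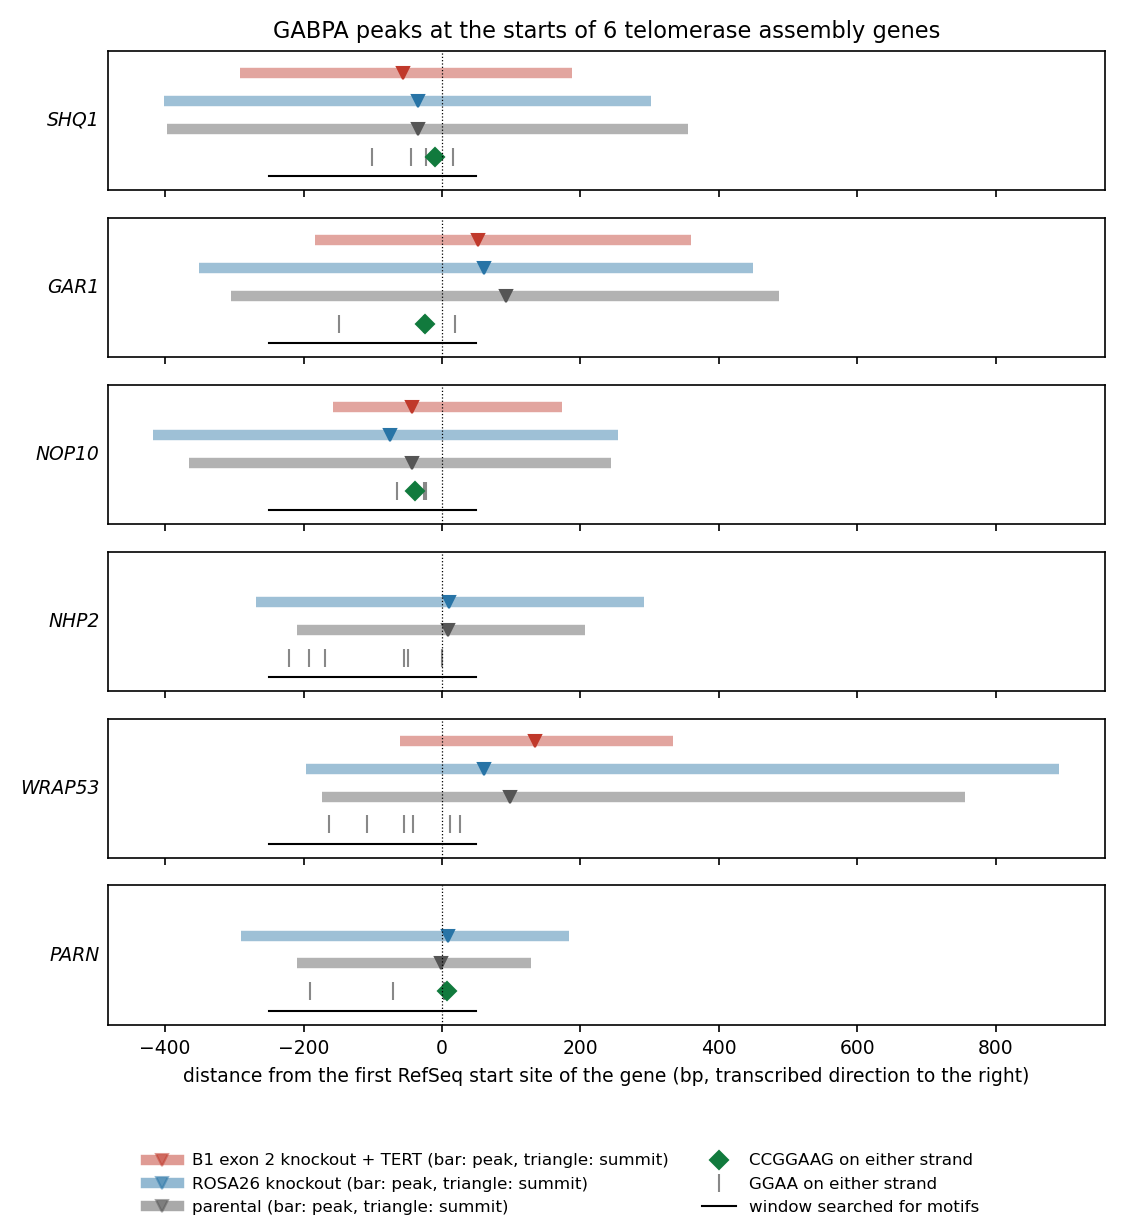
GABPA peaks (bars) and summits (triangles) at 6 genes, plotted by distance from the first RefSeq start site in bp, with the B1 knockout above ROSA26 and parental, CCGGAAG (diamonds) and GGAA (ticks) in the first promoter window (black line). NOP10, SHQ1 and PARN have a diamond close to the summits, GAR1 has it 77 bp or more from them, and NHP2 and WRAP53 have ticks only.

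Other promoter motifs differed between members. GGGCGG, bound by SP1 family factors, was found 5 times at NHP2, 4 times at DKC1 and 3 times at TERT, and occurs in 56.3% of all windows. CACGTG, the E-box bound by MYC and related factors, was found at TERT once, at NOP10 at 2 places and once in the second GAR1 window, and occurs in 8.34% of all windows. These matches describe the reference letters only.

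Other factors that process or assemble telomerase RNA were read from a list of 21 genes. Of these, 5 had a peak in the B1 knockout, 9 in the ROSA26 and 7 in the parental library, beside 9.32%, 18.5% and 15.5% of all protein-coding genes. Of the 7 in both controls, 5 were listed in the B1 knockout, beside 60.4% over all such genes. The AAA+ ATPases RUVBL1 (folds 5.48 in the B1 knockout, 6.37 in ROSA26 and 5.65 in parental) and RUVBL2 (5.43, 6.47 and 9.38) help to assemble the H/ACA particle. TGS1 (10.7, 19.7 and 12.8), which hypermethylates the RNA cap, had the strongest peaks of the list. The cap-binding gene NCBP1 (4.72, 9.83 and 8.41) and the helicase gene DHX36 (7.48, 10.2 and 8.97) were listed in the 3 libraries too. The deadenylase gene TOE1 (4.35 in ROSA26 and 3.33 in parental) and NVL (3.68 and 4.46) had no B1 knockout peak, and SRRT (2.18) and TEP1 (2.46) were listed in ROSA26 alone. The peaks of RUVBL1, RUVBL2, TGS1, NCBP1 and TOE1 were shared with EEFSEC, GYS1, TMEM68, TSTD2 and MUTYH. The other 12 genes had no peak.

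Box C/D small nucleolar RNAs are held by a separate particle that shares some assembly factors with the H/ACA one. Of 10 core and assembly genes, 1 had a peak in the B1 knockout, 3 in the ROSA26 and 3 in the parental library, beside the same 9.32%, 18.5% and 15.5%. Of the 3 in both controls, 1 was listed in the B1 knockout, beside 60.4%. PIH1D1, part of the R2TP chaperone complex, had folds of 8.26, 14.3 and 16.4. The core gene NOP58 (6.26 in ROSA26 and 5.38 in parental) and the assembly gene NUFIP1 (4.50 and 2.99), whose peak was shared with GPALPP1, were not listed in the B1 knockout. The other 7 genes had no peak near an end. At these list sizes the counts are descriptions, and no difference between the lists was tested. The gene of the telomerase RNA itself, TERC (chromosome 3, 169764610 to 169765060), had no summit within 1 kb in any library. The nearest lay 9383018 bp away in the B1 knockout, 8.28 kb away in the ROSA26 and 8.31 kb away in the parental library.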

How the data were processed

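GABPA ChIP-seq peak lists of 3 A-375 libraries were used. Per the submitters' processing notes the tools were Bowtie2 (an aligner), SAMtools and MACS2 (a peak caller), and the build was hg38. No source used here gives their versions, thresholds or how inputs entered. The deposited lists, 1 per ChIP sample, give each summit's fold enrichment, the −log10 of its p-value and q-value, and a score equal to 10 times the −log10 q with decimals dropped.

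The whole number of reads at each summit was found that gives both its fold (pileup plus 1, divided by background plus 1) and its Poisson p-value, as MACS2 defines them, with 1 scale factor per library. All peaks gave whole reads within 0.02. In simulated lists 7191 of 7200 peaks gave back their reads exactly, and the largest error was 3 reads. Those lists were made with the same formulas, so they check the solving step and not how the authors' caller was run. Values were scaled between libraries by the most common background among each library's peaks (9.11 in the B1 knockout, 14.2 in ROSA26 and 13.3 in parental, scaled reads).

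Genes and 8 of 9 promoters came from RefSeq tables (GRCh38.p14). Peaks were shared when they overlapped by 1 bp. Named genes are the 9 members, all marked genes of the 2 other lists and genes sharing a peak with either. GAR1-DT and TERC lie outside that rule and were chosen after the values were seen. Members, lists and alternatives were chosen with earlier results of these data known. With 1 library per condition no test was made. Python 3.11.15, NumPy 2.4.6, SciPy 1.17.1 and pandas 2.3.3 were used.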

Additional observations from a re-analysis of the deposited data

How the results depend on the processing

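The members called did not depend on the distance rule: 4 members in the B1 knockout, 6 in the ROSA26 and 6 in the parental library were listed with summits within 500 bp or 2 kb, anywhere in the gene, by overlap of the peak, for the nearest gene only or at the gene start only. With a −log10 q of at least 10 they were 3, 6 and 4, since WRAP53 left the B1 knockout list and NHP2 and PARN the parental one. With lists of equal length 3 members were listed in the ROSA26 and 3 in the parental library. The share of all protein-coding genes was not computed for the stricter q or for lists of equal length. The share of peaks of like strength with a B1 knockout peak was 57.5% for NOP10 and 13.0% for WRAP53 by ROSA26 fold, in place of 84.5% and 4.50%. It was 78.5% for GAR1 by parental −log10 p, an alternative chosen after seeing the data, in place of 88.0%. The cause of these shifts was not tested. The other 52 of 57 alternative values stayed within 1.5 times the count or within the interval of the share. No paired analysis was possible because each condition has 1 ChIP library. The most common background was 9.86 reads in the B1 knockout, against 14.2 and 15.4 in the ROSA26 and parental libraries. Scaled to the B1 knockout background, the −log10 p in the ROSA26 and parental libraries was 17.3 and 8.25 at NHP2 and 9.58 and 7.55 at PARN. These values lay above the lowest listed in the B1 knockout (4.74). Why no peak was listed there was not tested, and binding at NHP2 or PARN in the B1 knockout is not shown to be absent.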
